A study of Mus musculus with 6 samples.

Results

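The DNA replication genes described here are 44 genes that code for the proteins which mark origins, load and start the replicative helicase, copy the strands, join the fragments and supply deoxynucleotides. They were picked by name from the 48709 genes of the count table for these functions, and every symbol matched a single Ensembl gene. RNA was sequenced from G1E-ER4 cells, a mouse line in which tamoxifen switches on the erythroid factor GATA1, present as an estrogen receptor fusion, so that the immature cells begin to mature toward red cells. The CHD4-APR group (3 libraries) received a peptide with the aggregation-prone stretch of the C-terminus of CHD4, the remodeling ATPase of the NuRD and ChAHP complexes, and the CTRL group (3 libraries) received a peptide of alanines. Both peptides carried the Tat sequence and were given at 10 μM, 2 h ahead of tamoxifen, and the cells of both groups were collected 28 h after tamoxifen was added. The tamoxifen concentration is 100 nM in the growth protocol and 100 μM in the design text. There was a single dose, a single time and a single cell line, and no library of cells without peptide or tamoxifen was analysed here. No source states that the 3 libraries of a group came from separate cultures, so the p-values measure the spread between these libraries, which may be technical.

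Replication is prepared in G1, when the origin recognition complex (ORC), CDC6 and CDT1 load the MCM2-7 helicase onto DNA as an inactive double ring. This step is called licensing, and geminin blocks it after S phase has begun. The kinase of CDC7 and DBF4, together with CDC45, the GINS complex and MCM10, then turns the ring into a moving helicase, and polymerases held by the PCNA clamp copy both strands. Many of these genes are transcribed under E2F control as cells enter S phase, and erythroid precursors go through their last divisions while they make hemoglobin.

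The libraries held between 41687482 and 49784177 counts, and the replication genes took 0.285% to 0.329% of them. Erythroid markers were tested for 11 of 12 genes, of which 2 were higher and 5 lower in the CHD4-APR group. Their summed level was 69580 to 75020 CPM (normalized counts scaled to a common library size) in CTRL and 58850 to 62910 CPM in CHD4-APR. The sum of 8 progenitor markers was 696.9 to 789.7 CPM against 618.0 to 659.6 CPM, with Cd34 at 0. Zfpm1 and Spi1, which were lower, made up nearly all of that sum. Of the progenitor markers 7 were tested, Myc was higher, and the list had a median of 0.26 (log2 fold change). The megakaryocyte list, with 4 of 9 genes tested and 1 lower, summed to 47.6 to 50.2 CPM against 41.2 to 46.8 CPM, with Gp1bb, Ppbp and Vwf among those at 0. The mast and myeloid list summed to 4.46 to 5.15 CPM against 3.56 to 4.81 CPM, with Mpo, Ctsg, Mcpt8 and Ly6c2 at 0. The lymphoid list summed to 0.304 to 0.59 CPM against 0.328 to 0.604 CPM, with Cd3e, Ptprc and Il7r at 0. The part of the erythroid, progenitor and megakaryocyte differences in the values given here was not tested. Chd4 itself had a log2 fold change of 0.05 (standard error 0.041, edgeR FDR 0.322).

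All 44 replication genes had enough counts to be tested, at 2.88 to 91.9 CPM per kilobase of exon. The length counts every annotated exon base of a gene over all its transcripts, so ranks by level per length depend on the annotation. Rfc2, for example, has 6303 such bases and Pcna 2400. With the CHD4-APR peptide 5 of them rose (Orc1, Mcm4, Pola1, Rrm1 and Orc4), 4 fell (Gmnn, Rfc2, Pold1 and Gins4) and 35 did not pass an FDR of 0.05 by edgeR's quasi-likelihood test with Benjamini-Hochberg adjustment over all genes. The 9 called genes were 20.5% of the replication genes, beside 38.3% of the 12722 genes tested, of which 20.4% were higher and 17.8% lower. That difference in shares was not tested. Orc1, Mcm4, Pola1 and Gmnn (4 of 44) were called and differed by at least 1.2-fold, beside 20.2% of all genes tested. The median log2 fold change of the replication genes was 0.0067, with a range from -0.27 to 0.48, and that of all genes tested was -0.012. Positive values were found for 23 genes and negative values for 21, but the count of positive values was 13 without CTRL replicate 1, 32 without CTRL replicate 2 or without CHD4-APR replicate 1, and 17 with an adjustment for length and GC content. For 9 replication genes the libraries of the groups did not overlap, beside 49.9% of all genes tested. In RNA from whole cultures, fewer cells that replicate DNA and less RNA per cell cannot be told apart.

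Of the 35 genes that were not called, 32 had a 95% interval of the log2 fold change inside ±0.263, which is a 1.2-fold change, and 35 had one inside ±0.585, which is a 1.5-fold change. The exceptions at 1.2-fold were Gins3, Pold2 and Cdc7, whose intervals reached -0.30, -0.31 and 0.43. Adjusting each library for the length and GC content of transcripts, called the correction here, changed the split of calls to 3 higher and 10 lower, out of 28.1% of genes called. Dbf4 (-0.33), Orc5 (-0.31), Orc3 (-0.31) and Pola2 (-0.29), which were not called before, then lay beyond a 1.2-fold change. The 1.2-fold limit above therefore holds only without the correction, and intervals with the correction are not given here for the 1.5-fold limit. The sign of 20 of the 44 fold changes turned with it, 13 of them in genes that were not called with or without the correction.

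**Figure D1:**
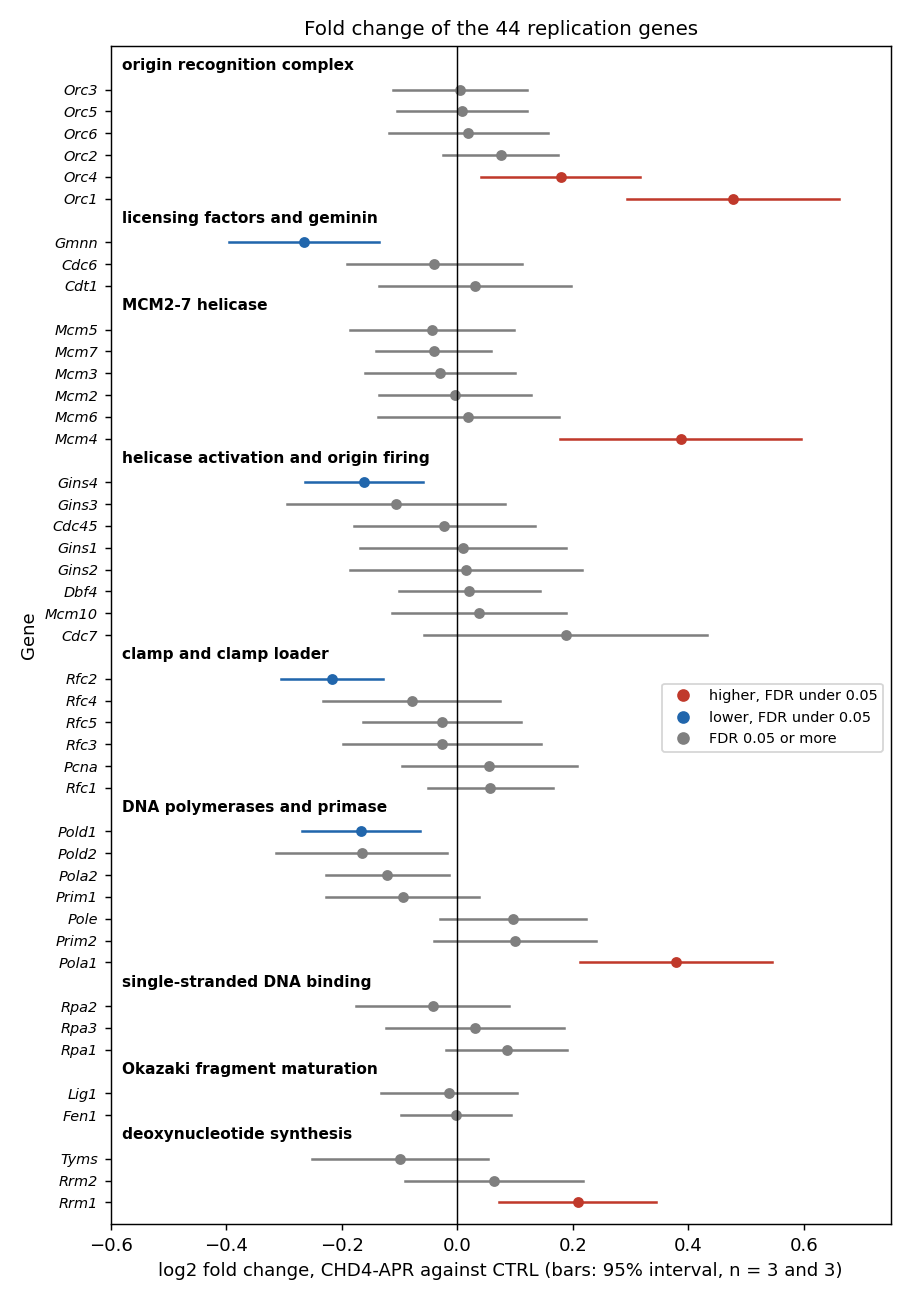
Log2 fold change (x axis) of each of the 44 replication genes in CHD4-APR against CTRL libraries (n = 3 and 3), grouped by step, with points for the estimate and bars for its 95% interval. Of the steps drawn, the origin recognition complex, the MCM2-7 helicase, the polymerases and deoxynucleotide synthesis hold the 5 genes that rose, and the 4 that fell lie between -0.27 and -0.16.

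The promoters of these genes were read from RefSeq windows on GRCm38.p6, which span 250 bases before to 50 bases after a transcription start and were at hand for 36 of the 44 genes. The genes with no entry were Gmnn, Mcm4, Gins1, Gins2, Gins4, Rfc2, Prim2 and Pole. E2F letters (TTTCCCGC, TTTGGCGC, TTTCGCGC or TTTGCCGC on either strand, where matches on opposite strands can overlap) were present in 13 of the 36 genes (36.1%), beside 5.19% of the 8505 tested genes with a window. The CCAAT letters were present in 63.9% of the replication genes and 44.1% of those tested, and the CHR letters (TTTGAA or TTCGAA) in 25% and 16.4%. Of the 13 genes with E2F letters, Orc1 and Pola1 rose, Pold1 fell and 10 were not called. The sequences of 4 of them are shown because 2 rose and 2 did not pass the test while all carry E2F letters, which are in capitals. They end at the base before the RefSeq start and are written 5′ to 3′ on the strand of the gene: Orc1 at chr4:108579337-108579453 on the plus strand, Pola1 at chrX:93632156-93632305 on the minus strand, Cdc6 at chr11:98908001-98908150 on the plus strand and Mcm6 at chr1:128359706-128359855 on the minus strand.
Orc1: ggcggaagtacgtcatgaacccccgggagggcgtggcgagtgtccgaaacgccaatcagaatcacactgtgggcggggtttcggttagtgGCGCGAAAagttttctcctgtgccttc
Pola1: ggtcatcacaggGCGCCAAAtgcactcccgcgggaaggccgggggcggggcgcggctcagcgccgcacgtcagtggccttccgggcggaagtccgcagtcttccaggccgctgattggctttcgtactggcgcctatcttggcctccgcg
Cdc6: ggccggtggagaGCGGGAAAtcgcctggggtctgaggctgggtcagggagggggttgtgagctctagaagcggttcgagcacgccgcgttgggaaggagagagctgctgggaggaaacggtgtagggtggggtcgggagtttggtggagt
Mcm6: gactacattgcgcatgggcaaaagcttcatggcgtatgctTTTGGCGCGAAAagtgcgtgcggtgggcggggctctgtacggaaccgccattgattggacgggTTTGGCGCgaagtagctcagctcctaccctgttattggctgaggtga
The Orc1 and Pola1 stretches hold 1 match each, the Cdc6 stretch 1 and the Mcm6 stretch 3, of which the 2 farther from the start overlap. In GENCODE the last 31 bases of the Orc1 stretch are exon of a noncoding Orc1 transcript, and the other stretches overlap no exon. A match is a run of letters and not a measured binding site.

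Among the origin recognition genes, Orc1 and Orc4 rose and the other 4 were not called, with a median of 0.05 over the 6 genes. Orc1 codes for the largest ORC subunit, an ATPase whose level changes over the cell cycle. It was measured at 13.5, 15.6 and 16.0 CPM in CTRL and at 18.5, 21.5 and 22.7 CPM in CHD4-APR. The lowest CHD4-APR library lay above the highest CTRL library. The mean rose from 15.0 ± 1.36 to 20.9 ± 2.20 CPM (SD, n = 3 each), a log2 fold change of 0.48 (standard error 0.087, edgeR FDR 0.000452). This was the highest value among the replication genes, and it kept an FDR under 0.05 in each of the 16 alternatives run, with values from 0.41 to 0.56. Orc1 lies on chromosome 4 from 108579423 to 108614833 (GRCm38).

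Orc4, another ATPase subunit, had 22.8, 26.3 and 24.8 CPM in CTRL and 28.1, 27.9 and 27.7 CPM in CHD4-APR. The CHD4-APR libraries were close together and all above the CTRL libraries. Its log2 fold change was 0.18 (standard error 0.065, edgeR FDR 0.0383). Orc4 kept its call without CTRL replicate 2. The call was lost without CTRL replicate 1 (0.13, FDR 0.133), CTRL replicate 3 (0.18, FDR 0.0896) or CHD4-APR replicates 1 (0.18, FDR 0.0842), 2 (0.18, FDR 0.0897) or 3 (0.19, FDR 0.066). It was also lost with upper quartile scaling (0.16, FDR 0.0574). With the length and GC correction the sign of Orc4 turned, to -0.19 (FDR 0.0154). Orc2 had the highest level per length of this complex, 43.5 CPM per kilobase, and 157, 173 and 160.5 CPM in CTRL beside 166, 173 and 177 CPM in CHD4-APR. Its groups overlapped and its log2 fold change was 0.07 (standard error 0.047, edgeR FDR 0.229). Orc3, Orc5 and Orc6 were between 0.0046 and 0.02. After the correction Orc3 and Orc5, whose GC contents of 38.6% and 38.2% are among the lowest of the list, were at -0.31 each (FDR 0.000327 and 0.000312). Relative to the mean of the other 5 ORC genes, a ratio chosen after the values were seen, Orc1 was at -1.77, -1.69 and -1.56 on the log2 scale in CTRL and at -1.42, -1.20 and -1.16 in CHD4-APR.

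Of the licensing factors, the loaders Cdc6 and Cdt1 were not called and their inhibitor Gmnn fell. Gmnn codes for geminin, which binds CDT1 and keeps DNA from being licensed again in S and G2 phase. It had 35.9, 37.7 and 34.7 CPM in CTRL and 28.1, 30.4 and 31.7 CPM in CHD4-APR. Every CHD4-APR library was below every CTRL library. The means were 36.1 ± 1.50 and 30.0 ± 1.82 CPM (SD, n = 3 each), and the log2 fold change was -0.27 (standard error 0.062, edgeR FDR 0.00284), the lowest among the replication genes. It passed in each of the 16 alternatives, with values from -0.30 to -0.19, the latter with the length and GC correction. Over the 6 libraries Gmnn was also the highest of the 3 per length, at 22.6 CPM per kilobase. In CHD4-APR alone Cdc6 was higher, at 21.4 CPM per kilobase beside 20.5 for Gmnn. Cdt1, the factor that brings MCM2-7 to the origin, had 0.03 (standard error 0.079, edgeR FDR 0.794), and Cdc6, an ATPase that works with ORC, had -0.04 (standard error 0.072, edgeR FDR 0.699). The log2 ratio of Gmnn to Cdt1 was 0.94, 0.93 and 0.78 in CTRL and 0.68, 0.52 and 0.57 in CHD4-APR. The groups do not overlap in this ratio, which was also chosen after the values were seen.

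The MCM2-7 helicase was split: Mcm4 rose and the other 5 subunits were not called. The subunits form a ring with a copy of each. Mcm2 had 139, 162 and 149.5 CPM in CTRL and 136, 155 and 159 CPM in CHD4-APR. Mcm3 had 133, 151 and 139 CPM and then 124, 144 and 146 CPM. Mcm5 had 117, 138 and 126 CPM and then 109.8, 128 and 131 CPM. In all 3 the groups overlapped, and in each group the library of replicate 1 was the lowest.

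Mcm6 followed with 94.0, 116 and 102 CPM in CTRL and 93.5, 112 and 112 CPM in CHD4-APR. Mcm7 had 139, 145 and 142 CPM and then 129.7, 141 and 143 CPM. The same order of libraries held, with replicate 1 lowest in both groups and the groups overlapping. The log2 fold changes of Mcm2, Mcm3, Mcm5, Mcm6 and Mcm7 were -0.0041, -0.03, -0.04, 0.02 and -0.04, and their 95% intervals ran from -0.18 to 0.18 at the widest.

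Mcm4 had 32.3, 45.4 and 41.0 CPM in CTRL and 45.1, 55.4 and 55.0 CPM in CHD4-APR. CHD4-APR replicate 1 was just below CTRL replicate 2, so the groups overlapped. Its mean went from 39.6 ± 6.71 to 51.8 ± 5.85 CPM (SD, n = 3 each), a log2 fold change of 0.39 (standard error 0.098, edgeR FDR 0.00531). It passed in 15 of 16 alternatives, including each left-out library and the length and GC correction (0.31, FDR 0.0135), and missed in DESeq2 (0.39, FDR 0.0512). Relative to the mean of the other 5 MCM genes, which takes out what the subunits share in a library, Mcm4 was at -1.93, -1.64 and -1.67 on the log2 scale in CTRL. The CHD4-APR libraries were at -1.38, -1.29 and -1.32, so all 3 lay above the CTRL libraries in this ratio, chosen after the values were seen. Mcm4 was also the lowest subunit per length, at 12.7 CPM per kilobase beside 37.2 for Mcm3, the highest.

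**Figure D2:**
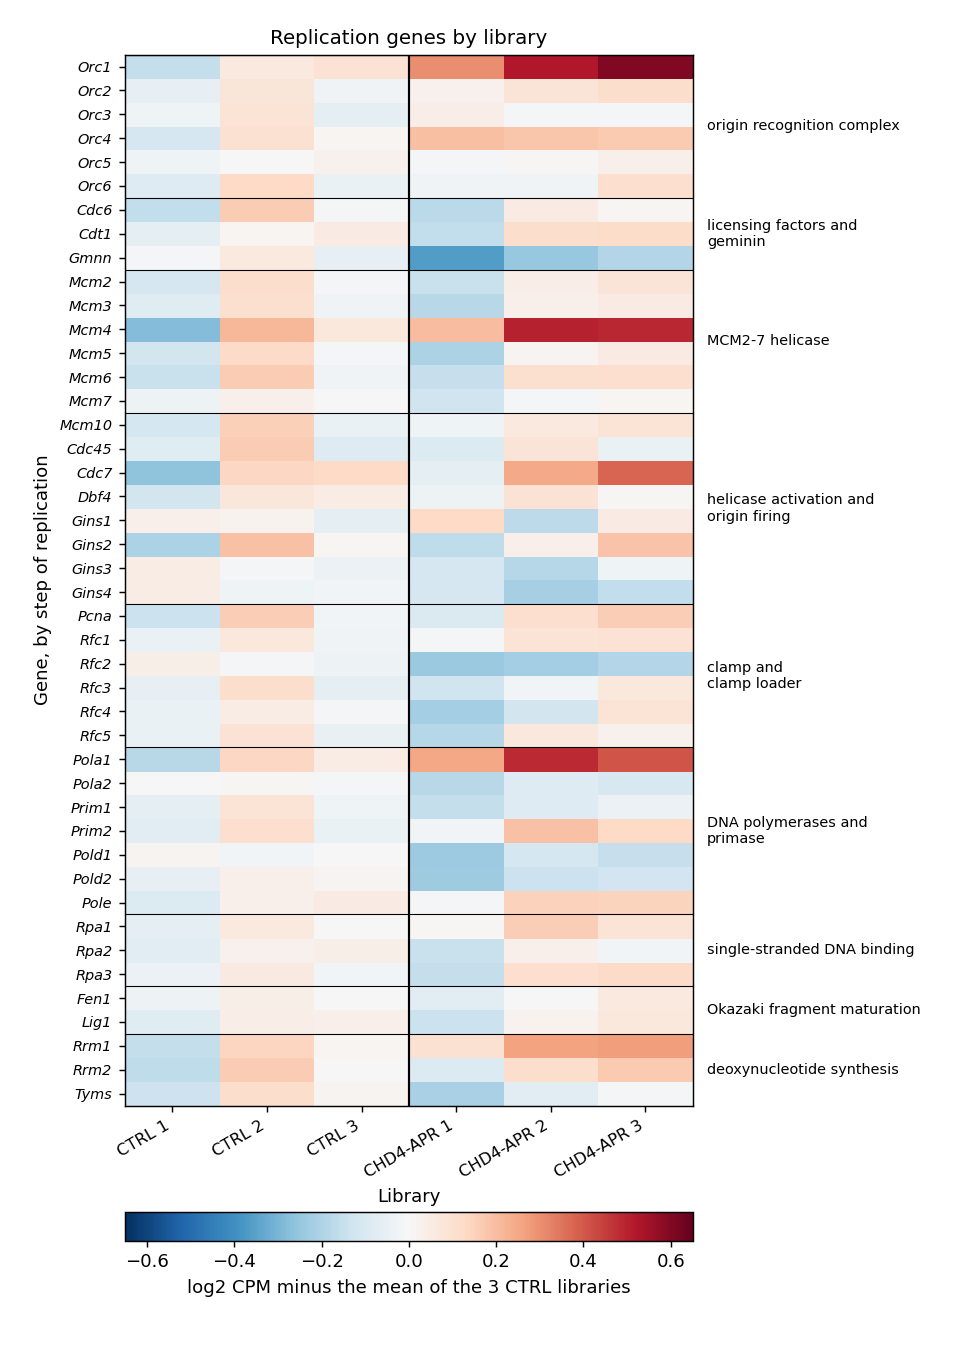
Level of each replication gene (y axis, by step) in each of the 6 libraries (x axis), as log2 CPM minus the mean of the 3 CTRL libraries, with red for higher and blue for lower. Orc1, Mcm4 and Pola1 are red in all 3 CHD4-APR libraries and Gmnn is blue in them, whereas most other rows are bluest in replicate 1 of each group.

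Of the 8 genes of helicase activation and origin firing, Gins4 fell and the other 7 were not called. Gins4 codes for SLD5, a subunit of the GINS ring that travels with CDC45 and MCM2-7, and had the highest level per length of this step (53.0 CPM per kilobase). It was at 78.0, 73.9 and 74.4 CPM in CTRL and at 69.9, 64.9 and 67.6 CPM in CHD4-APR. The groups did not overlap. The log2 fold change was -0.16 (standard error 0.048, edgeR FDR 0.0148). Gins4 lost its call without CHD4-APR replicate 2 (-0.13, FDR 0.108) or replicate 3 (-0.16, FDR 0.053) and with the length and GC correction (-0.064, FDR 0.313). The other GINS genes had -0.11 (Gins3), 0.0098 (Gins1) and 0.02 (Gins2). Of the exon bases of Gins2, 67.32% overlap Gse1, which rose by 0.24 (edgeR FDR 0.0012), and without strand the reads there cannot be told apart. Cdc7, the kinase that starts firing, had the highest value of this step, 0.19 (standard error 0.12, edgeR FDR 0.223), and passed only without CHD4-APR replicate 1 (0.31, FDR 0.0433). Its activator Dbf4 was at 0.02 (edgeR FDR 0.805) and, with the correction, at -0.33 (FDR 4.21e-05). Cdc45 had -0.02 and Mcm10, which helps the helicase to open DNA, 0.04.

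Of the clamp and its loader, Rfc2 fell and Pcna, Rfc1, Rfc3, Rfc4 and Rfc5 were not called. Rfc2 codes for a small subunit of replication factor C, the complex that opens the PCNA ring and places it at a primer. It was at 207, 201 and 198 CPM in CTRL and at 171, 174 and 177 CPM in CHD4-APR. The groups were apart by more than either spread. The means were 202 ± 4.88 and 174 ± 2.91 CPM (SD, n = 3 each), and the log2 fold change was -0.22 (standard error 0.042, edgeR FDR 0.00072). It passed in each of the 16 alternatives, with values from -0.26 to -0.20. The log2 ratio of Rfc2 to the mean of the other 4 loader genes, chosen after the values were seen, was 2.63, 2.46 and 2.55 in CTRL and 2.44, 2.32 and 2.29 in CHD4-APR. Of the exon bases of Rfc2, 15.1% overlap Lat2 on the other strand, and reads from these bases cannot be assigned to either gene without strand. Orc1 (10.81%, Gm12743), Orc2 (29.82%, Nif3l1), Rfc4 (12.65%, Eif4a2) and Rfc5 (10.69%, Wsb2) also share exon bases with a gene on the other strand.

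Pcna, the sliding clamp and the highest of this step per length (37.9 CPM per kilobase), had 80.8, 99.3 and 87.7 CPM in CTRL and 83.3, 95.9 and 99.3 CPM in CHD4-APR. The groups overlapped over nearly their whole range. The log2 fold change was 0.06 (standard error 0.072, edgeR FDR 0.58). The processed pseudogene Pcna-ps2 held 9778 counts over the 6 libraries beside 24469 of Pcna, so the level of Pcna depends on how shared reads were counted, which no source states. Rfc1, Rfc3, Rfc4 and Rfc5 had values from -0.08 to 0.06.

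The polymerase and primase genes went both ways. Pola1 rose, Pold1 fell and the other 5 were not called, with a median of -0.09 over the 7. Pola1 codes for the catalytic subunit of polymerase alpha, which extends the RNA primer. It was at 23.0, 28.6 and 26.9 CPM in CTRL and at 31.1, 36.5 and 34.7 CPM in CHD4-APR. The groups did not overlap. The mean went from 26.2 ± 2.85 to 34.1 ± 2.73 CPM (SD, n = 3 each), a log2 fold change of 0.38 (standard error 0.079, edgeR FDR 0.00128). Pola1 passed without each library in turn (0.29 to 0.45) but not with the length and GC correction (0.07, FDR 0.434). Pola1 lies on the X chromosome from 93304767 to 93632155, with 8813 exon bases and a GC content of 41.5%.

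Pola2, the accessory subunit of the same polymerase, had 51.1, 51.5 and 50.8 CPM in CTRL and 45.2, 48.3 and 47.6 CPM in CHD4-APR. The groups did not overlap, but the test was not passed, at a log2 fold change of -0.12 (standard error 0.05, edgeR FDR 0.067). Pola2 passed with upper quartile scaling (-0.14, FDR 0.0363) and with the length and GC correction (-0.29, FDR 0.000276). The log2 ratio of Pola1 to Pola2 was -1.15, -0.85 and -0.92 in CTRL and -0.54, -0.41 and -0.46 in CHD4-APR, so the groups were apart in this ratio, chosen after the values were seen. Prim1 and Prim2, the subunits of the primase that makes the RNA primer, had -0.09 and 0.10, and Prim1 passed with the correction (-0.21, FDR 0.0068).

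Pold1, the catalytic subunit of polymerase delta, which copies mostly the lagging strand, was the highest of this step per length (14.5 CPM per kilobase). It had 75.5, 73.5 and 74.5 CPM in CTRL and 63.2, 68.9 and 67.1 CPM in CHD4-APR. The CTRL libraries were close together and all higher. The log2 fold change was -0.17 (standard error 0.048, edgeR FDR 0.0118). Pold1 lost its call without CHD4-APR replicate 1 (-0.13, FDR 0.0787) and with the length and GC correction (-0.09, FDR 0.152), and its GC content of 61.0% is the highest of the list. Its partner Pold2 was also lower in every CHD4-APR library than in every CTRL library, with -0.17 (standard error 0.07, edgeR FDR 0.0732). Pold2 passed only with upper quartile scaling (-0.18, FDR 0.0482), and was at 0.0044 with the correction (FDR 0.973). Pole, the catalytic subunit of the leading-strand polymerase epsilon, had 0.10 (standard error 0.06, edgeR FDR 0.224).

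None of the 5 genes of single-stranded DNA binding and Okazaki fragment maturation passed edgeR's test at an FDR of 0.05. The lowest unadjusted p among them was 0.105, for Rpa1, so 0 of 5 had an unadjusted p under 0.05, and 0 of 5 passed in DESeq2 or limma-voom. Rpa1, the large subunit of replication protein A, had 135, 147 and 141 CPM in CTRL and 142, 158 and 149.98 CPM in CHD4-APR, and its log2 fold change was 0.09 (standard error 0.05, edgeR FDR 0.194). Rpa2 was at -0.04 and Rpa3 at 0.03. Fen1, the flap nuclease that trims Okazaki fragments, was the highest of all 44 genes per length, at 91.9 CPM per kilobase. It had 217, 228 and 223 CPM in CTRL and 212, 223 and 232 CPM in CHD4-APR. These values overlap, and its log2 fold change was -0.0023 (standard error 0.045, 95% interval -0.10 to 0.09). Of its exon bases, 78.82% overlap Gm10143 on the other strand. Lig1, the ligase that seals the fragments, had -0.01 (standard error 0.056, edgeR FDR 0.867). With the length and GC correction Fen1 was higher (0.12, FDR 0.0362) and Rpa3, at 34.2% the lowest GC content of the list, was lower (-0.19, FDR 0.0393).

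For deoxynucleotide synthesis, Rrm1 rose and Rrm2 and Tyms were not called. Rrm1 codes for the large, long-lived subunit of ribonucleotide reductase, whose small subunit RRM2 is made in S phase. Rrm1 had 165, 203 and 186 CPM in CTRL and 197, 221 and 223 CPM in CHD4-APR. CHD4-APR replicate 1 was below CTRL replicate 2, so the groups overlapped. The log2 fold change was 0.21 (standard error 0.064, edgeR FDR 0.0171). Rrm1 lost its call without CTRL replicate 1 (0.13, FDR 0.0575), CTRL replicate 3 (0.21, FDR 0.0524), CHD4-APR replicate 2 (0.19, FDR 0.0645) or CHD4-APR replicate 3 (0.18, FDR 0.0623). With the length and GC correction it was at -0.09 (FDR 0.238).

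Rrm2 had the highest level per length of these 3 genes, 69.3 CPM per kilobase, with 167, 209 and 187 CPM in CTRL and 176, 202 and 210.4 CPM in CHD4-APR. Its groups overlapped and its log2 fold change was 0.06 (standard error 0.073, edgeR FDR 0.53). The log2 ratio of Rrm1 to Rrm2 was -0.0098, -0.05 and -0.0073 in CTRL and 0.17, 0.13 and 0.08 in CHD4-APR. In this ratio, chosen after the values were seen, the groups were apart although they overlapped for each gene alone. With the length and GC correction the order of the fold changes of these genes turned, to -0.09 for Rrm1 and 0.03 for Rrm2. Tyms, the enzyme that makes thymidylate, had -0.10 (standard error 0.072, edgeR FDR 0.302) and was lower with the correction (-0.23, FDR 0.0142).

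**Figure D3:**
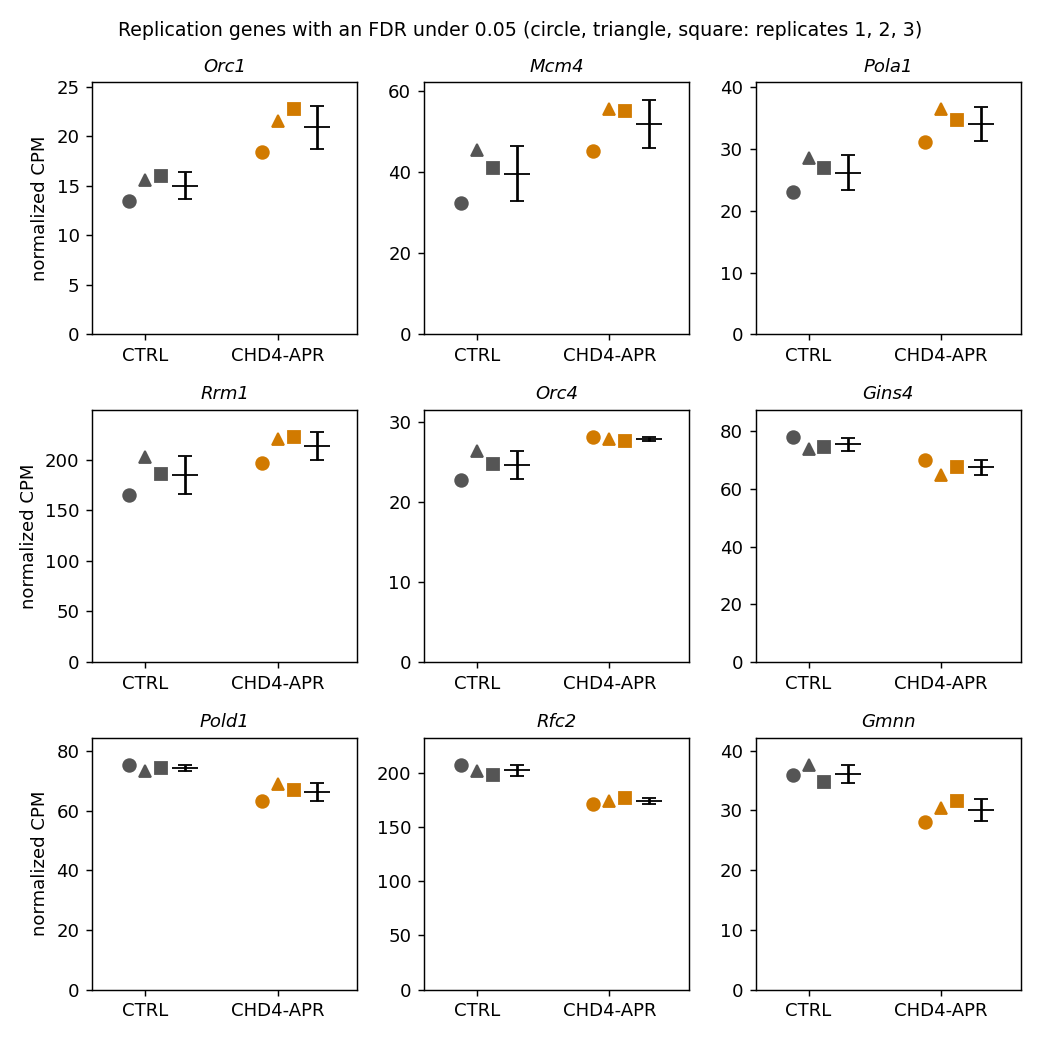
Normalized CPM (y axis, from 0) of the 9 replication genes with an FDR under 0.05 in the CTRL (gray) and CHD4-APR (orange) libraries, with a point for each library and a bar for the mean and SD (n = 3). The groups are apart in 7 panels and overlap for Mcm4 and Rrm1, where CHD4-APR replicate 1 lies below CTRL replicate 2.

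A gene on the other strand started within 1000 bases of 13 replication genes, and 6 of these 13 neighbours were called, beside 38.3% of all genes tested, so the count says little about the neighbours. Of the called replication genes, Orc1 had Prpf38a as its neighbour (0.03, edgeR FDR 0.71), Mcm4 had Prkdc (0.30, edgeR FDR 0.00143) and Orc4 had Mbd5 (0.32, edgeR FDR 0.00131). Other neighbours passed the test beside a replication gene that did not: Vps35 at Orc6 (0.30, edgeR FDR 0.0002), Umad1 at Rpa3 (0.20, edgeR FDR 0.0482), Pxmp2 at Pole (-0.27, edgeR FDR 0.0168) and Tmem258 at Fen1 (-0.39, edgeR FDR 8.21e-05). The neighbours of Orc3, Mcm7, Cdc45, Dbf4, Gins1 and Rpa1 were not called.

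The replication genes varied together between libraries of the same group. In CTRL replicate 1, 5 of the 44 genes were above the mean of their group, whereas in CTRL replicate 2 it was 39 and in CTRL replicate 3 it was 16. In the CHD4-APR group the counts were 5, 35 and 40. The median log2 deviation of the replication genes from the group mean was -0.07, 0.08 and -0.0054 in CTRL and -0.10, 0.04 and 0.06 in CHD4-APR, in the order of the replicates. That of all genes tested lay between -0.00086 and 0.0046 in the 6 libraries. The median SD within groups was 0.10 on the log2 scale for the replication genes and 0.07 for the 7374 genes tested in the same range of levels. These points share their libraries and are not independent of each other.

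By step, the medians in CTRL replicate 1 were all below 0, from -0.15 for deoxynucleotide synthesis to -0.04 for the clamp and its loader. In CHD4-APR replicate 1 they ran from -0.16 for the MCM2-7 helicase to -0.03 for the origin recognition complex. Lists of related genes moved likewise. Of 8 genes of replication-coupled chromatin assembly, which include subunits of CAF-1 and histone chaperones, 0, 8 and 1 were above the group mean in CTRL replicates 1, 2 and 3, and 0, 7 and 8 in the CHD4-APR replicates. Of 13 genes of nucleotide supply the counts were 4, 11 and 6, and 0, 10 and 10. Of 28 fork and origin partners they were 9, 21 and 14, and 5, 19 and 24. Of 21 E2F and G1/S regulators they were 2, 19 and 16, and 7, 18 and 12. In each of these lists and in both groups, replicate 1 had the fewest genes above the mean. Of the 11 erythroid markers, 8 were above the group mean in CTRL replicate 1 and 4 in CHD4-APR replicate 1. Neither the labels nor the files give a sequencing batch or a measure of the cell cycle, and what set these libraries apart was not tested. Without CTRL replicate 1 the median of the replication genes was -0.04 and the calls were 3 higher and 4 lower. Without CHD4-APR replicate 1 the median was 0.05 and the calls were 5 higher and 3 lower. Without CTRL replicate 3 they were 3 and 4, and without CHD4-APR replicate 2 or 3 they were 3 and 3. Of all genes, 32.3%, 38.1% and 31.1% were called without CTRL replicates 1, 2 and 3. Without CHD4-APR replicates 1, 2 and 3 it was 30.5%, 28.6% and 32%, beside 38.3% with all 6 libraries. Orc1, Mcm4, Pola1, Gmnn and Rfc2 were called without each of the 6 libraries in turn.

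The fold changes of all genes followed GC content, so the replication genes were set beside genes of like composition. Across the 12677 genes tested with a known length and GC content, the log2 fold change had a Pearson correlation of -0.40 with GC content (Spearman -0.46), and across the 44 replication genes it had -0.39 (Spearman -0.48). Genes share libraries and are not replicates, so these are descriptions. Below 45% GC the median of all genes was 0.19, with 43.5% higher and 4.91% lower, and the 13 replication genes there had a median of 0.03, with 3 higher and 0 lower. At 50% GC or more the median of all genes was -0.11, with 28.3% lower and 5.88% higher, and the 15 replication genes there had a median of -0.03, with 3 lower and 0 higher. The medians of the replication genes were nearer to 0 than those of all genes at both ends, a difference that was not tested. Under 40% GC, Orc3, Orc4, Orc5, Dbf4 and Rpa3 had a median of 0.02, beside 0.25 for 871 genes. Orc1 and Mcm4, at 46.7% and 45.5% GC, lay above the middle 50% of genes of like composition.

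When the trend with length and GC content was taken out of each library, 28.1% of genes tested were called and 13 of the 44 replication genes (29.5%). Fen1, Mcm4 and Orc1 were higher, and Dbf4, Gmnn, Orc3, Orc4, Orc5, Pola2, Prim1, Rfc2, Rpa3 and Tyms were lower. The median of the replication genes was then -0.04, beside -0.02 for all genes. Orc1, Mcm4, Gmnn and Rfc2 were called in the same direction in both analyses, Orc4 was called in opposite directions, and Pola1, Rrm1, Pold1 and Gins4 were called only without the correction. The genes whose sign turned without a call in either analysis were Orc2, Orc6, Mcm3, Mcm5, Mcm6, Mcm7, Mcm10, Rfc1, Prim2, Pold2, Pole, Rpa2 and Lig1. Their corrected values ran from -0.11 for Prim2 (0.10 before) to 0.05 for Lig1 (-0.01 before). Whether a trend with composition came from the libraries or from the cells was not tested.

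**Figure D4:**
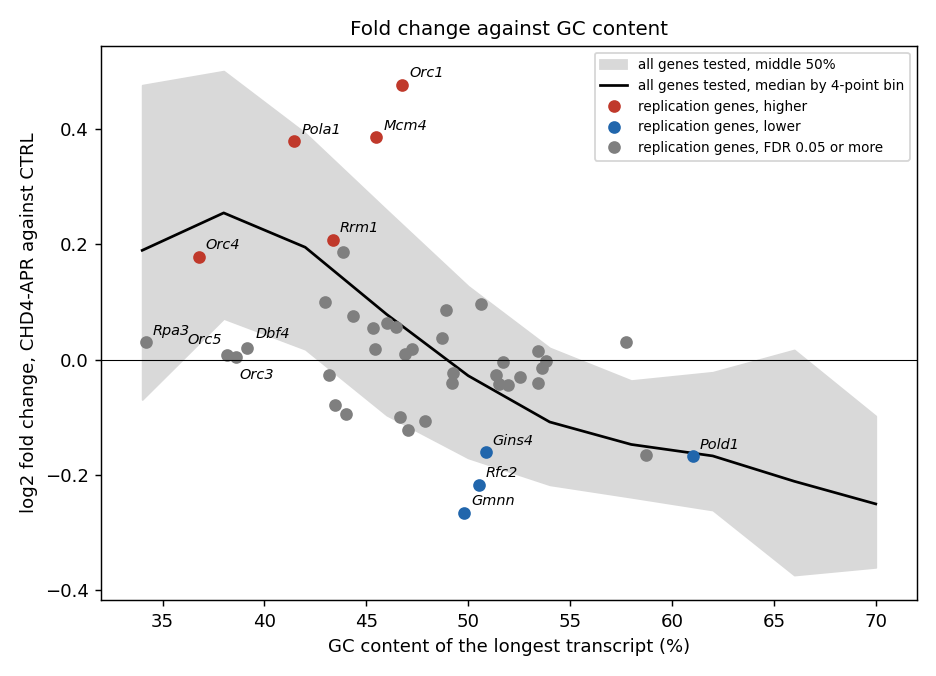
Log2 fold change in CHD4-APR against CTRL libraries (y axis) against the GC content of the longest transcript (x axis, percent), with a line for the median and a gray band for the middle 50% of all genes tested and points for the replication genes. The line falls from 0.25 at 38% GC to -0.11 at 54% GC, and Orc3, Orc5, Dbf4 and Rpa3 lie below it.

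Another 70 genes around the pathway were counted from 4 lists, and 21 of them rose and 10 fell, with a median of 0.04. The 10 became 4 without CHD4-APR replicate 1 and 6 when replicate 2 of that group was left out, and the 21 became 12 with the length and GC correction. Of the 21 E2F and G1/S regulators 14 rose and 1 fell, beside 20.4% and 17.8% of all genes, with a median of 0.23. Ccne2, a cyclin E that drives entry into S phase, was at 1.75, 2.73 and 2.87 CPM in CTRL and 4.27, 4.31 and 4.19 CPM in CHD4-APR (log2 fold change 0.79, standard error 0.16, edgeR FDR 0.000979). Lin54, the DNA-binding subunit of the DREAM and MuvB complexes, rose by 0.56 (standard error 0.067, edgeR FDR 1.15e-05), and Rbl1, the pocket protein p107, rose by 0.54 (standard error 0.095, edgeR FDR 0.000341). The list thus holds activators and repressors of the same promoters. Ccne1, the other cyclin E, fell by 0.17 (standard error 0.062, edgeR FDR 0.0384) with overlapping groups, and its call was lost without CTRL replicate 2 (-0.13, FDR 0.134), CTRL replicate 3 (-0.18, FDR 0.0776), CHD4-APR replicate 1 (-0.10, FDR 0.223) or CHD4-APR replicate 2 (-0.18, FDR 0.0747), and with the correction (-0.07, FDR 0.443). With the length and GC correction 8 of the 21 were higher and 0 lower, with a median of 0.16, in a fit that called 28.1% of all genes.

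Of 28 fork and origin partners, 4 rose and 8 fell, beside 20.4% and 17.8% of all genes tested. Atad5, which unloads PCNA from finished DNA, rose by 0.56 (standard error 0.11, edgeR FDR 0.000733), Top1, the topoisomerase that relaxes DNA ahead of the fork, by 0.36 (standard error 0.047, edgeR FDR 2.21e-05) and Topbp1, which helps to load CDC45, by 0.27 (standard error 0.052, edgeR FDR 0.000627). Pold4, the smallest subunit of polymerase delta, fell by 0.37 (standard error 0.056, edgeR FDR 9.84e-05), and Rnaseh2a and Rnaseh2c, subunits of the nuclease that removes ribonucleotides from DNA, fell by 0.26 and 0.22 (edgeR FDR 0.000295 and 0.00989). The third RNase H2 gene, Rnaseh2b, was also called lower (-0.18, edgeR FDR 0.0216) and is named because it completes that enzyme, a choice made after its value was seen. Without CHD4-APR replicate 1, Rnaseh2c (-0.16, FDR 0.0683) and Rnaseh2b (-0.15, FDR 0.0953) were not called. Rnaseh2b was also lost without CTRL replicate 1 (-0.15, FDR 0.0652) and CHD4-APR replicate 2 (-0.16, FDR 0.1). After the correction 2 of the 28 were higher and 6 lower, in a fit that called 28.1% of all genes in either direction. Top1 (0.05) and Topbp1 (0.05) were not among the called partners, nor was Rnaseh2c (-0.05).

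Of 13 genes of nucleotide supply outside the 44, 2 rose and 1 fell, beside 20.4% and 17.8% of all genes tested. Dck, the salvage kinase for deoxycytidine, was at 40.6, 58.2 and 53.9 CPM in CTRL and 75.6, 88.3 and 81.9 CPM in CHD4-APR, a log2 fold change of 0.68 (standard error 0.094, edgeR FDR 3.96e-05). Rrm2b, the p53-dependent small subunit of ribonucleotide reductase, rose by 0.62 (standard error 0.11, edgeR FDR 0.000402), from 4.91, 6.60 and 6.55 CPM to 8.70, 9.90 and 9.25 CPM. Dctpp1, which clears modified deoxycytidine triphosphates, fell by 0.30 (standard error 0.096, edgeR FDR 0.0198), and lost its call without CHD4-APR replicate 1 (-0.22, FDR 0.102) or replicate 2 (-0.27, FDR 0.0748), and with the correction (-0.08, FDR 0.536). Of the 8 chromatin assembly genes 1 passed, beside 38.3% of all genes tested. It was Slbp, the histone mRNA binding protein, at 0.17 (standard error 0.059, edgeR FDR 0.0283). Slbp lost its call without CTRL replicate 1 (0.11, FDR 0.0994), CTRL replicate 3 (0.19, FDR 0.0548), CHD4-APR replicate 2 (0.16, FDR 0.0937) or CHD4-APR replicate 3 (0.15, FDR 0.102), and with the correction (-0.0051, FDR 0.953).

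**Figure D5:**
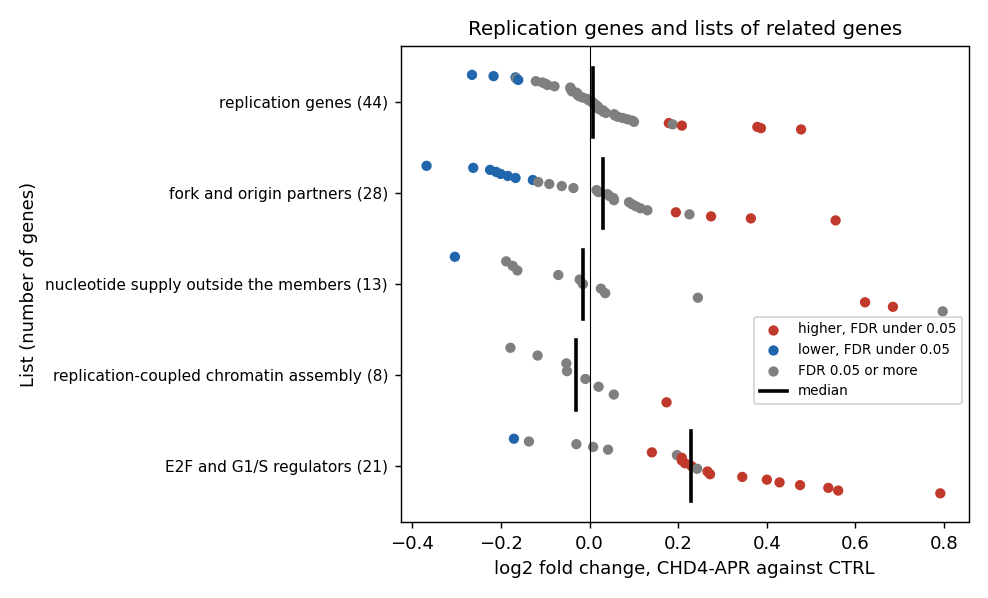
Log2 fold change (x axis) of each gene of the 44 replication genes and of 4 lists of related genes (y axis), colored by the call in edgeR, with a bar at each median. The replication genes center on 0.0067, whereas the E2F and G1/S regulators center on 0.23 with 14 of 21 points called higher.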

How the data were processed

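Poly(A) RNA of 3 CTRL and 3 CHD4-APR libraries was prepared with an unstranded TruSeq v2 kit. The authors trimmed adaptors with Cutadapt, aligned with STAR 2.7.10a to GRCm38 and counted with featureCounts, and the deposited values are raw counts per Ensembl gene. The strand setting and the handling of reads that match several genes are not given in the sources used here. Another 2 columns matched no sample and were not used. The value of 1 marker gene is not reported here.

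Names, exon length and GC content came from GENCODE M21 (48349 of 48709 identifiers matched). The 12722 genes that passed filterByExpr in edgeR 4.0.16 (R 4.3.3) were TMM-scaled and compared by the quasi-likelihood F-test, two-sided and without a replicate block. FDR is the Benjamini-Hochberg value over all genes tested, with a threshold of 0.05. All replicate pairs were further apart than sampling noise. The procedure was also run on simulated counts, and the outcome is not given here.

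The replication genes and other lists were chosen with earlier results of these data known. Values per library are given for the MCM2-7 genes, the 3 largest called changes in each direction, and the largest called change and the highest level per length of each step. From other lists the 3 largest called changes in each direction are named. Values per library of Orc4 and Pola2 were added after their values were seen. Alternatives were DESeq2 1.42.0, limma-voom (limma 3.58.1), 2 other scalings, 2 other filters, removal of hemoglobin genes, a replicate block, a length and GC correction (mgcv 1.9.3), both together, an FDR of 0.01 and leaving out each library.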

Additional observations from a re-analysis of the deposited data

How the results depend on the processing

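Among the 16 alternatives that gave fold changes, Orc1, Gmnn and Rfc2 stayed on the same side of 0 and of the FDR threshold of 0.05 every time. DESeq2, limma-voom, RLE scaling, the 2 other filters, the removal of hemoglobin genes and the replicate block kept the counts of 5 higher and 4 lower replication genes, except that DESeq2 called 4 higher. Those fits called from 23.3% (no filter on low counts) to 41% (replicate block) of the genes they tested. Upper quartile scaling gave 4 higher and 6 lower, beside 39.5% of all genes called. The length and GC correction gave 3 higher and 10 lower replication genes and 12 higher related genes, beside 28.1% of all genes called. The sign of 20 replication genes turned with it, 13 of them called in neither fit. Among genes called in at least 1 of the fits it reversed Orc3 (-0.31), Orc4 (-0.19), Orc5 (-0.31), Dbf4 (-0.33), Rpa3 (-0.19), Fen1 (0.12), Rrm1 (-0.087), Slbp (-0.0051) and Tfdp2 (-0.013), and the cause was not tested. With the correction and a replicate block together, 4 replication genes were higher and 11 lower (34.1% of them), beside 31.9% of all genes called. In that fit 13 related genes were higher. Of the genes called in at least 1 of the fits the same 9 were reversed, at -0.31, -0.19, -0.31, -0.33, -0.19, 0.12, -0.087, -0.0052 and -0.014, beside 13 replication genes called in neither. At an FDR of 0.01, 3 replication genes were higher and 2 lower (11.4% of them), beside 25.5% of all genes called. At that threshold 14 related genes were higher and 5 lower. Leaving out each library gave 3 to 5 higher and 3 to 4 lower replication genes, and 15 to 24 higher and 4 to 11 lower related genes, where the lower ones numbered 4 without CHD4-APR replicate 1 and 6 when replicate 2 of that group was left out. These fits called 28.6% to 38.1% of all genes, beside 38.3% with every library. The median of the replication genes then ran from -0.043 to 0.05. The correlations of deviations between same-numbered libraries were 0.0697, 0.0552 and -0.035. Those between libraries with different numbers ran from -0.0808 to 0.0338. Among the replication genes, replicate 1 was the lowest library of its group for 33 genes in CTRL and 38 in CHD4-APR. Correlations this weak cannot decide whether the replicate numbers pair the samples, and pairing was not tested. The fit with a replicate block called 41% of genes in place of 38.3%, and the same 9 replication genes. Each replication gene had 304 or more counts in each library.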
